A study of Homo sapiens with 24 samples.

Results

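The comparison described here is oncostatin M (OSM) against vehicle in HepG2 cells after 24 h. It rests on 6 of the 24 arrays of the series. HepG2 is an established human liver tumour cell line with many hepatocyte features, so the results describe 1 transformed line and not primary liver cells. The OSM cultures received 100 ng/mL OSM for 24 h (3 arrays), and the vehicle cultures, which 1 label field calls untreated, received DMSO for 24 h (3 arrays). All wells held 0.25% DMSO, including those given OSM, which had been dissolved in phosphate-buffered saline. The members were chosen by array title and by annotation: all 16098 probe sets with 1 gene symbol, of 53617 on the array, which stand for 14884 genes. The series was built around compounds that induce TRIB1, a pseudokinase of the Tribbles family linked to blood lipids. BRD8518, a compound known here by its code name alone, was also given for 24 h at 1 uM (3 arrays), and OSM and DMSO were sampled at 1 h as well (3 arrays each).

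OSM is a cytokine of the interleukin-6 family. It binds a receptor made of gp130 with either the OSM receptor (OSMR) or the LIF receptor (LIFR), activates JAK kinases, and through them STAT3 and the MAP kinase pathway. In the liver the interleukin-6 family is known as the driver of the acute phase response, in which hepatocytes secrete more of some plasma proteins and less of others. SOCS proteins, themselves induced by STAT factors, switch the signal off.

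Values are log2 array signals made by the authors with the RMA method, so a difference of 1 is a 2-fold change, and a level of one gene cannot be set against a level of another. Over all probe sets the array medians were 4.90 to 4.95 for OSM and 4.91 to 4.92 for DMSO. Over genes, correlations between arrays were 0.9954 to 0.9965 within OSM, 0.9956 to 0.9967 within DMSO and 0.9891 to 0.9906 between the groups. All 24 arrays were fitted together, so that they share 1 estimate of the spread, and 1 array of another group, replicate 2 of DMSO at 6 h, stood apart in that fit. Nothing in the labels says that replicates were separate cultures, so p-values speak only of how far arrays differed, and part of that may be technical. In cultured cells measured in bulk, fewer cells of a kind and less RNA per cell cannot be told apart. The 10 measured hepatocyte markers, of 12 listed, had mean levels from 7.91 to 12.50 with OSM and from 8.70 to 12.53 with DMSO. Stellate and fibroblast markers, of which 4 of 10 were measured, had levels from 2.27 to 5.87 with OSM and from 2.27 to 6.01 with DMSO, and 0 of them passed the test. Macrophage markers ran from 3.59 to 12.32 with OSM and from 3.70 to 12.23 with DMSO. Biliary markers ran from 5.14 to 11.63 with OSM and from 4.92 to 11.01 with DMSO. These levels therefore do not separate the cell types, and without detection calls they do not show which markers were present.

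OSM changed 1526 genes at 24 h, which is 10.3% of those tested, at an adjusted p under 0.05 by limma. Of these, 685 were higher (4.60%) and 841 were lower (5.65%) with OSM. These shares are the background for the list counts below, and 1 or 2 calls in a short list may be near them. Most changes were small: the median was 0.48 among the higher genes and -0.46 among the lower ones. At least a 2-fold change was seen for 114 genes (0.766%), of which 68 were higher (0.457%) and 46 lower (0.309%). The OSM arrays all lay above the DMSO arrays for 683 of the 685 higher genes, and all below them for 838 of the 841 lower ones; over all genes the arrays of the groups were apart for 30.8%. Without the DMSO array at 6 h that stood apart, 2535 genes passed in place of 1526.

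**Figure D1:**
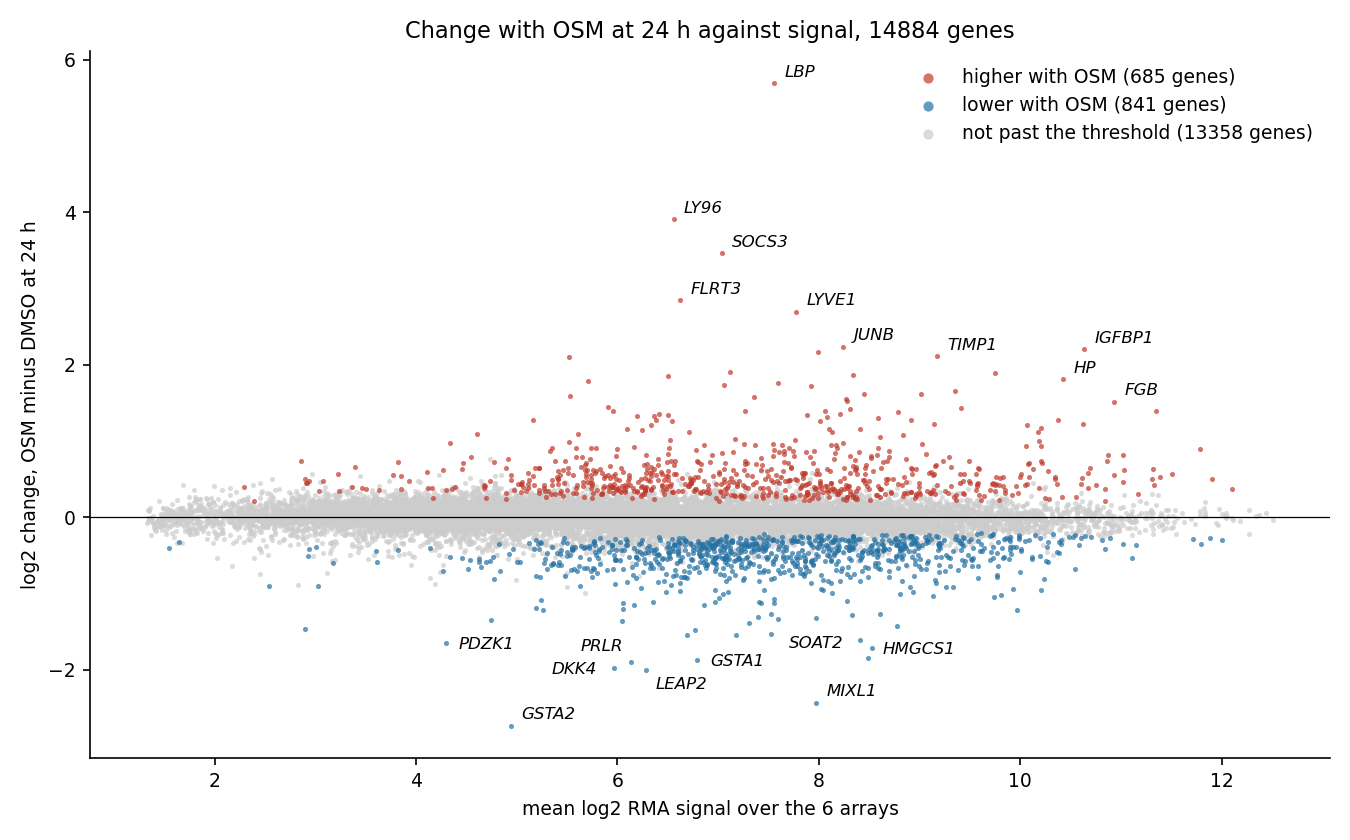
Log2 change with OSM at 24 h (vertical axis) against the mean log2 signal over the 6 arrays (horizontal axis), 1 point per gene. Red points are the 685 genes higher with OSM, blue points the 841 lower ones and grey points the others; LBP at 5.70 stands far above the rest, and GSTA2 at -2.73 is the lowest.

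Genes of lipopolysaccharide recognition had the 2 largest rises. LBP, the plasma protein that carries bacterial lipopolysaccharide to its receptor, had 10.23, 10.50 and 10.47 on the OSM arrays, against 4.54, 4.88 and 4.70 on the DMSO arrays. The groups were far apart, and LBP was 51.8-fold higher with OSM (log2 change 5.70, SE 0.13, adjusted p = 3.5e-18). LY96, which encodes the MD-2 co-receptor of TLR4, had 8.79, 8.25 and 8.50 on the OSM arrays, against 4.78, 4.46 and 4.57 on the DMSO arrays. It was 15-fold higher (log2 change 3.91, SE 0.21, adjusted p = 1.4e-11). Arrays that did not overlap were a condition for being named among the largest rises, LBP and LY96 included. On the DMSO arrays both genes lay below the array medians, and without detection calls it is not known whether they were above background there, so these folds may understate the difference. CD14, the co-receptor of the same complex, rose by less (log2 change 0.74, SE 0.14, adjusted p = 0.00099); it, FGA and FGG below were picked after their values were seen, to complete the complexes they belong to. The next largest rises were SOCS3, then FLRT3, a membrane protein of cell adhesion (log2 change 2.85, SE 0.15), and LYVE1, a hyaluronan receptor (log2 change 2.70, SE 0.16). LYVE1 is known from lymphatic and liver sinusoidal endothelium. Among the endothelial markers, 5 of 8 were measured, 0 rose and PECAM1 fell (log2 change -0.43, SE 0.10, adjusted p = 0.0063), and their summed signal was 7.25 to 7.33 with OSM and 7.29 to 7.40 with DMSO on the log2 scale.

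**Figure D2:**
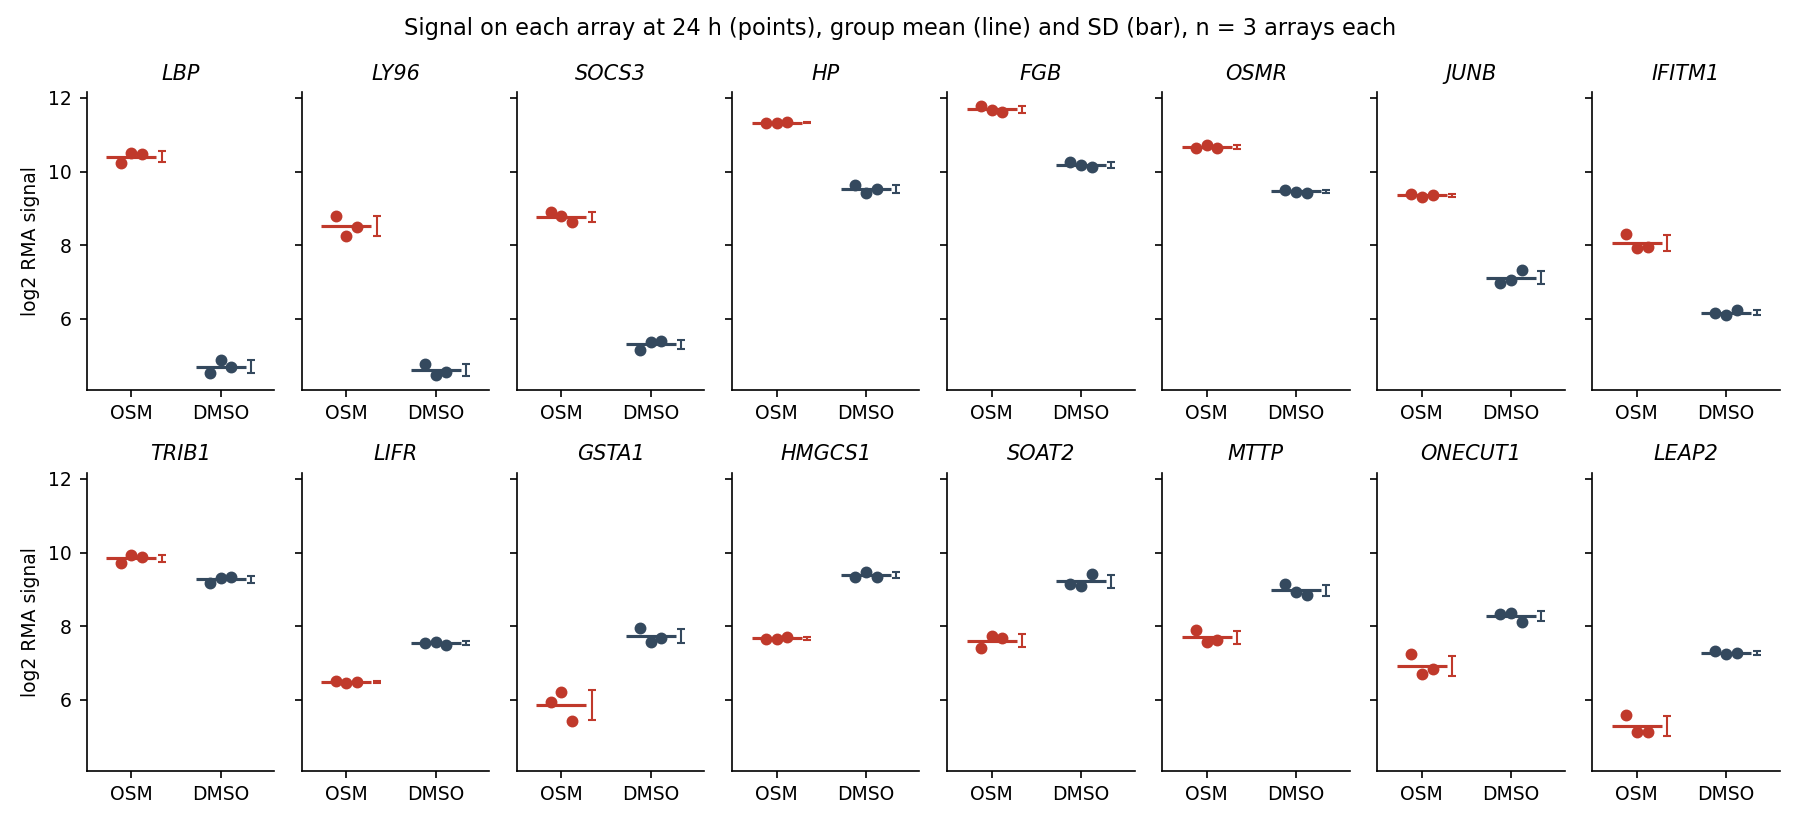
Log2 RMA signal of 16 genes on each array at 24 h, OSM left of DMSO in each panel; points are arrays, the line is the mean of 3 arrays and the bar beside it the SD. In every panel the 3 OSM arrays lie on one side of the 3 DMSO arrays, above them from LBP to TRIB1 and below them from LIFR to LEAP2. For genes taken from the largest rises and falls this was a condition of naming. Over all genes the groups were apart for 30.8%.

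The alternative receptor chains of OSM moved in opposite directions. The shared chain gp130 is not among the 13 measured genes of this list, so nothing is said of it. OSMR, the chain specific to OSM, had 10.63, 10.72 and 10.65 on the OSM arrays, against 9.51, 9.45 and 9.43 on the DMSO arrays. It was 2.3-fold higher with OSM (log2 change 1.20, SE 0.07, adjusted p = 2.8e-11). LIFR, the alternative chain, had 6.50, 6.47 and 6.47 on the OSM arrays, against 7.55, 7.58 and 7.49 on the DMSO arrays. It was 2.08-fold lower (log2 change -1.06, SE 0.12, adjusted p = 2e-06). IL6R, the interleukin-6 receptor, rose (log2 change 0.87, SE 0.09, adjusted p = 2.2e-07). Downstream, STAT3 itself rose (log2 change 0.58, SE 0.08, adjusted p = 2.1e-05), as did the adaptor SHC1 (log2 change 0.63, SE 0.07, adjusted p = 2.9e-06), while the docking protein GAB1 fell (log2 change -0.97, SE 0.13, adjusted p = 1.1e-05). Thus 4 of the 13 measured receptor and JAK-STAT genes, of 18 listed, were higher and 2 lower. The kinases did not pass the test, with log2 changes of -0.05 for JAK1, -0.05 for JAK2 and -0.08 for TYK2, nor did STAT5A at 0.08, STAT5B at 0.09, GRB2 at 0.15 or OSM itself at 0.02.

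Of the feedback inhibitors of the pathway, SOCS3 rose most. SOCS3, which blocks gp130 and JAK kinases, had 8.90, 8.79 and 8.62 on the OSM arrays, against 5.15, 5.36 and 5.40 on the DMSO arrays. It was 11.1-fold higher (log2 change 3.47, SE 0.14, adjusted p = 1.4e-13). A weaker SOCS3 probe set gave a log2 change of 1.78. SOCS1, a JAK inhibitor, was 2.66-fold higher (log2 change 1.41, SE 0.13, adjusted p = 7.7e-08), and CISH, best known as a brake on STAT5 signals, rose less (log2 change 0.42, SE 0.09, adjusted p = 0.0023). SOCS6 was lower (log2 change -0.44, SE 0.13, adjusted p = 0.031), but it did not pass when any 1 of the 6 arrays was left out (log2 change -0.46 to -0.40). The remaining members, SOCS2, SOCS4, SOCS5 and SOCS7, ranged from -0.10 to 0.06 and did not pass, so 3 of the 8 measured inhibitors, of 15 listed, were higher and 1 lower.

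Positive acute phase proteins rose as a group. Of 17 measured, out of 25 listed, 12 were higher, 0 were lower and all 17 changes were above zero, with a median of 0.81 against 0.0076 over all genes. Beside LBP, the largest were LRG1, a secreted glycoprotein (log2 change 1.89, SE 0.09, adjusted p = 2.4e-12), haptoglobin, HP, which binds free haemoglobin (log2 change 1.81, SE 0.10, adjusted p = 1.6e-11), and the copper carrier ceruloplasmin, CP (log2 change 1.22, SE 0.11, adjusted p = 7.4e-08). HP had 11.31, 11.33 and 11.36 on the OSM arrays, against 9.64, 9.41 and 9.52 on the DMSO arrays, with the OSM arrays close together and well above the others. All 3 fibrinogen chains, the precursors of the clot, rose. FGB had 11.79, 11.67 and 11.62 on the OSM arrays, against 10.25, 10.17 and 10.11 on the DMSO arrays (log2 change 1.51, SE 0.10, adjusted p = 2.7e-10). FGA rose by 0.89 (SE 0.06, adjusted p = 8.7e-10) and FGG by 0.81 (SE 0.09, adjusted p = 1.2e-06). The haptoglobin-related gene HPR also rose (log2 change 1.31, SE 0.14, adjusted p = 9.2e-07), but its sequence is close to HP and probe sets of such genes may read each other. Among negative acute phase proteins, 3 of 10 measured were lower and 0 higher, with a median of -0.22. They were APOA1, the main protein of HDL (log2 change -0.79, SE 0.15, adjusted p = 0.001), transthyretin, TTR, a thyroid hormone carrier (log2 change -0.46, SE 0.07, adjusted p = 8.1e-05), and transferrin, TF, the iron carrier (log2 change -0.35, SE 0.06, adjusted p = 0.00026).

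Complement genes followed the same direction, with 7 of 14 measured higher and 0 lower (median 0.25). C5, which starts the terminal pathway, had 11.10, 10.99 and 10.95 on the OSM arrays, against 9.78, 9.75 and 9.68 on the DMSO arrays, a 2.43-fold rise (log2 change 1.28, SE 0.12, adjusted p = 5.1e-08). CFB of the alternative pathway rose (log2 change 0.63, SE 0.08, adjusted p = 8e-06), as did its regulator CFI (log2 change 0.44, SE 0.09, adjusted p = 0.0029). C4A and C4B rose by 0.71 and 0.70, but they are near-identical genes that the array may not separate. Coagulation genes were mixed: 1 of 13 measured rose, PROS1, a cofactor of the anticoagulant protein C (log2 change 0.57, SE 0.09, adjusted p = 9.2e-05), and 3 fell, beside 4.60% higher and 5.65% lower over all genes. Among those, KNG1, the kininogen precursor, fell by 1.98-fold (log2 change -0.99, SE 0.12, adjusted p = 3.2e-06), though a second KNG1 probe set gave -0.12, and F11, coagulation factor XI, had 6.68, 6.32 and 6.47 on the OSM arrays, against 7.55, 7.46 and 7.31 on the DMSO arrays (log2 change -0.95, SE 0.12, adjusted p = 5.4e-06). CPB2, an inhibitor of fibrinolysis, was the third (log2 change -0.52), and its call was lost when OSM replicate 2 or 3 or DMSO replicate 1 or 2 was left out (log2 change -0.60 to -0.46 over the 6 arrays left out in turn).

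Promoter sequence is shown for SOCS3, LRG1, OSMR and the 3 fibrinogen genes, because these rose and hold a match to a motif that STAT3 is known to bind; they were picked for that and are not typical. Of the 15 acute phase, receptor, JAK-STAT and feedback genes that rose and have a promoter in the table, CD14, HPX and CISH also hold a match, and SOCS1, ITIH3, IL6R, SHC1, STAT3 and LCN2 hold none. Of 12 promoters of STAT3-linked factors and survival genes, 0 hold TTCCNGGAA or CTGGGAA. The windows run from 250 bases before to 50 after the gene's start, 5′ to 3′ on the gene's strand, from RefSeq on GRCh38.p14. Capitals mark the match to TTCCNGGAA, a STAT consensus, or to CTGGGAA, the interleukin-6 response element, which reads TTCCCAG when it lies on the other strand.
SOCS3: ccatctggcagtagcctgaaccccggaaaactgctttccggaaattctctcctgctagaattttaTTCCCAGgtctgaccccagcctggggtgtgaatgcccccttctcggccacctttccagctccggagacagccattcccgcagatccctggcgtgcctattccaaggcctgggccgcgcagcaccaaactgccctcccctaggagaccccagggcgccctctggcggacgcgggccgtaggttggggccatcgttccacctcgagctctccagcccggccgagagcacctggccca
LRG1: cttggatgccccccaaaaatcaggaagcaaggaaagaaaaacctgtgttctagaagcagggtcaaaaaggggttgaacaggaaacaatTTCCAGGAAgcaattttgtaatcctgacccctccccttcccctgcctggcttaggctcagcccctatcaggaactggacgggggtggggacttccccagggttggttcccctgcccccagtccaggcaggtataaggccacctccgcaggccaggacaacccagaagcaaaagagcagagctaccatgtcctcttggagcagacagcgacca
OSMR: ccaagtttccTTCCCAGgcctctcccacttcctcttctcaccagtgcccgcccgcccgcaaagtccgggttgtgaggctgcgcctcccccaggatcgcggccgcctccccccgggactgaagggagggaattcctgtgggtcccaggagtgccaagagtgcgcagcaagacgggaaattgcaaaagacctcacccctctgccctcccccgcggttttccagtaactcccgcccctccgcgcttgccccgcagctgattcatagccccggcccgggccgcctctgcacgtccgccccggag
FGB: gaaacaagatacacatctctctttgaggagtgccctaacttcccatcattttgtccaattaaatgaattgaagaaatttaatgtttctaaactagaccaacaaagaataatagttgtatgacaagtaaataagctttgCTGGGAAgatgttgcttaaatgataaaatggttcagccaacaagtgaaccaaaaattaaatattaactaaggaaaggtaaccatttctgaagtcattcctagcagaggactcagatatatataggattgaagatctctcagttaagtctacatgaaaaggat
FGA: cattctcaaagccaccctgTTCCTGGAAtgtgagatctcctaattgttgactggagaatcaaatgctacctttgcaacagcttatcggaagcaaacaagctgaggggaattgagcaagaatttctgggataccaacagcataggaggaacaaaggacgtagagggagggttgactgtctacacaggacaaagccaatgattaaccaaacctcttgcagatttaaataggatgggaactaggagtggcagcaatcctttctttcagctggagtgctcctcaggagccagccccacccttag
FGG: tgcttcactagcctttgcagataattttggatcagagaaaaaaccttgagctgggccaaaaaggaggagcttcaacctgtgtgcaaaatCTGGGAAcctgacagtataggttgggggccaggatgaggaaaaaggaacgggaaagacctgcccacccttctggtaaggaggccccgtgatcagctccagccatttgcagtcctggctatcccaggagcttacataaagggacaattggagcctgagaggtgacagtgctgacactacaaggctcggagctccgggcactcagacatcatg
These windows are chr17:78360876-78361175 (minus strand), chr19:4539987-4540286 (minus), chr5:38845762-38846061 (plus), chr4:154562730-154563029 (plus), chr4:154590693-154590992 (minus) and chr4:154612607-154612906 (minus). The match began 185 bases before the start in SOCS3, 162 in LRG1, 240 in OSMR, 112 in FGB, 231 in FGA and 161 in FGG. Searched on both strands, TTCCNGGAA was found in 3.55% of the 507 higher genes with a promoter in the table (18 genes), in 0.730% of the 685 lower ones (5 genes), in 1.18% of the 10749 tested and in 1.22% of all 27305 promoters. Among the 18 were LRG1, PLSCR4, ICAM1, FGA, CD14, CFB, PROS1 and CISH. By contrast CTGGGAA was in 11.2% of higher, 9.49% of lower and 11.6% of tested genes, and the looser TTCNNNGAA, which contains every TTCCNGGAA, was in 7.89%, 5.11% and 6.74% of the same sets. These are counts of letters in short windows, and no test was made of them.

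Several transcription factors of the AP-1 and early growth response families were higher with OSM after 24 h. JUNB, an AP-1 subunit, had 9.39, 9.31 and 9.37 on the OSM arrays, against 6.98, 7.05 and 7.33 on the DMSO arrays and was 4.71-fold higher (log2 change 2.24, SE 0.12, adjusted p = 1.4e-11). EGR1, a zinc finger factor, had 9.30, 9.53 and 9.61 on the OSM arrays, against 7.77, 8.19 and 8.34 on the DMSO arrays (log2 change 1.38, SE 0.13, adjusted p = 1.1e-07), while its second, dimmer probe set gave 0.19. The AP-1 subunit FOSL2 rose (log2 change 0.94, SE 0.08, adjusted p = 4.9e-08), and so did DUSP6, a phosphatase of ERK kinases (log2 change 0.78, SE 0.08, adjusted p = 3.6e-07), the survival gene IER3 (log2 change 0.81, SE 0.08, adjusted p = 1.3e-07) and the growth factor antagonist SPRY4 (log2 change 0.74, SE 0.08, adjusted p = 1.7e-06). In all, 12 of 29 measured MAPK immediate-early and feedback genes were higher and 3 lower, with a median of 0.18. The lower ones were SPRY2 (log2 change -0.40, SE 0.09, adjusted p = 0.0052), the AP-1 subunit JUND (log2 change -0.34) and the phosphatase DUSP8 (log2 change -0.33). The count of 3 was 1 without OSM replicate 2 or 3 or DMSO replicate 1 or 3, and 2 without OSM replicate 1. Of the STAT3-linked factors and survival genes, 10 of 17 were higher and 0 lower (median 0.40). They included the kinase PIM1 (log2 change 0.81, SE 0.12, adjusted p = 6.1e-05) and TIMP1, an inhibitor of matrix proteases, which had 10.24, 10.08 and 10.35 on the OSM arrays, against 8.36, 7.87 and 8.11 on the DMSO arrays (log2 change 2.11, SE 0.16, adjusted p = 2.2e-09). TIMP3 of the same family gave -0.72 in the probe set used but 0.48 in its other one, so no direction is given for it.

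Interferon-linked genes rose in part. The antiviral membrane proteins IFITM1, IFITM2 and IFITM3 were higher, with log2 changes of 1.90 (SE 0.14), 1.66 (SE 0.10) and 0.72 (SE 0.13). They are near-identical genes, and their probe sets may read each other. IRF9, the DNA-binding part of the interferon-activated STAT complex, rose (log2 change 0.69, SE 0.08, adjusted p = 4.5e-06), and so did the ubiquitin ligase DTX3L (log2 change 0.64, SE 0.08, adjusted p = 3.4e-06). USP18, a negative regulator of interferon receptors, fell and had 8.80, 8.65 and 8.74 on the OSM arrays, against 9.68, 9.51 and 9.60 on the DMSO arrays (log2 change -0.87, SE 0.08, adjusted p = 8.9e-08). Of the 18 measured, 7 were higher and 1 was lower, with a median of 0.26. Among 14 chemokine and NF-kB genes 2 rose, the adhesion molecule ICAM1 (log2 change 0.93, SE 0.07, adjusted p = 6.7e-09) and the chemokine CCL20 (log2 change 0.62, SE 0.10, adjusted p = 8.1e-05), and 0 fell.

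TRIB1, around which the series was built, had 9.72, 9.92 and 9.88 on the OSM arrays, against 9.17, 9.31 and 9.34 on the DMSO arrays. The OSM arrays lay above the DMSO arrays, as they did for 14.2% of all genes. TRIB1 was 1.48-fold higher with OSM (log2 change 0.57, SE 0.08, adjusted p = 4.1e-05). Neither of its relatives passed the test, with log2 changes of -0.05 for TRIB2 and -0.12 for TRIB3. APOB, the core protein of VLDL and LDL, had 12.47, 12.57 and 12.45 on the OSM arrays, against 12.46, 12.55 and 12.59 on the DMSO arrays, and its change of -0.04 did not pass (adjusted p = 0.86). MTTP, which loads lipid onto APOB, had 7.89, 7.56 and 7.63 on the OSM arrays, against 9.14, 8.93 and 8.85 on the DMSO arrays. It was 2.42-fold lower (log2 change -1.28, SE 0.18, adjusted p = 3.9e-05).

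Sterol synthesis and uptake genes fell together: 15 of 18 measured genes, of 26 listed, were lower and 0 higher, with a median of -0.75. HMGCS1, an early enzyme of the mevalonate pathway, had 7.65, 7.65 and 7.72 on the OSM arrays, against 9.34, 9.48 and 9.34 on the DMSO arrays and was 3.27-fold lower (log2 change -1.71, SE 0.08, adjusted p = 7.3e-13). ACAT2, which makes acetoacetyl-CoA for this pathway, had 8.04, 7.89 and 8.01 on the OSM arrays, against 9.27, 9.23 and 9.24 on the DMSO arrays (log2 change -1.27, SE 0.08, adjusted p = 7.6e-11). The OSM arrays lay below the DMSO arrays in both genes, as they did for 16.6% of all genes. Mevalonate kinase, MVK, fell (log2 change -1.13, SE 0.10, adjusted p = 3.8e-08), as did the isomerase IDI1 (log2 change -1.07, SE 0.08, adjusted p = 3.6e-09) and the late-step enzyme HSD17B7 (log2 change -1.11, SE 0.24, adjusted p = 0.0029). SOAT2, which esterifies cholesterol for storage and secretion and is no member of that list, had 7.41, 7.72 and 7.69 on the OSM arrays, against 9.13, 9.10 and 9.41 on the DMSO arrays and was 3.05-fold lower (log2 change -1.61, SE 0.09, adjusted p = 1.6e-11).

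**Figure D3:**
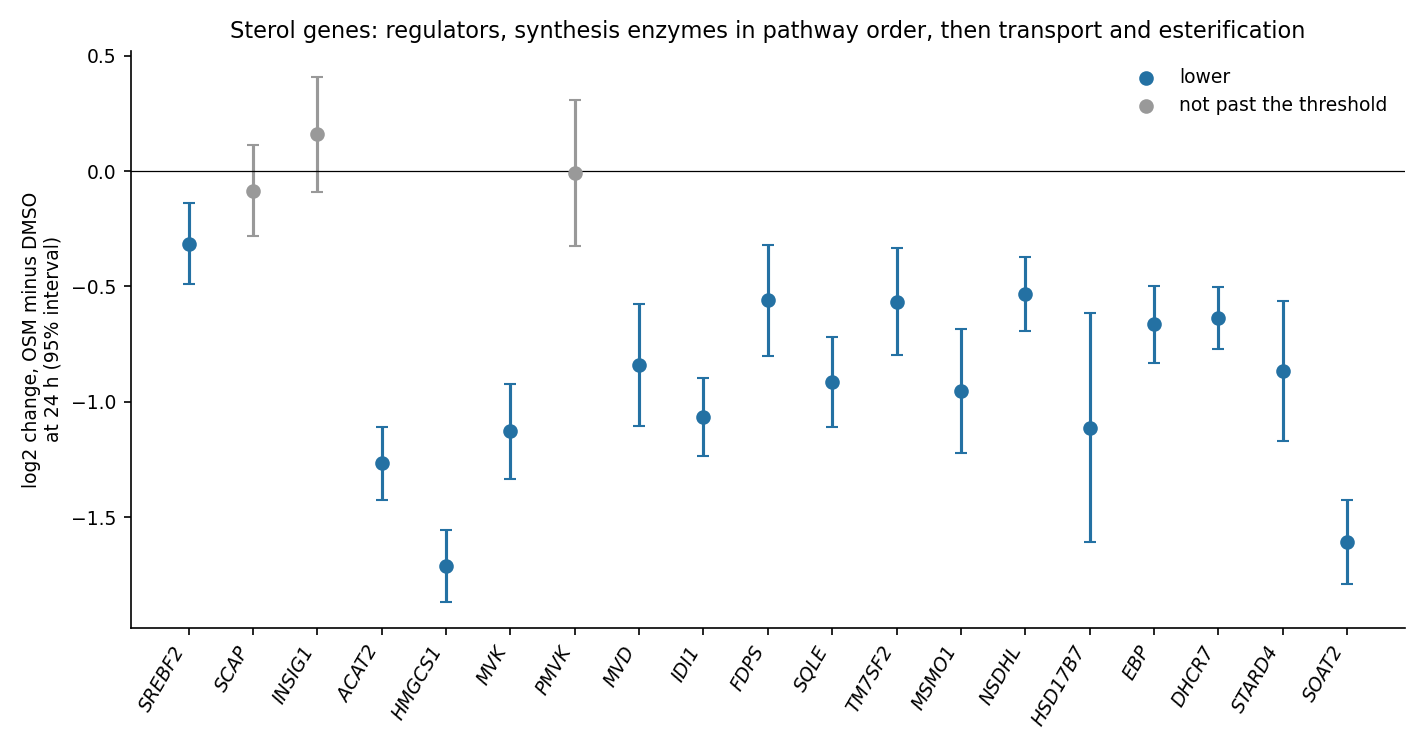
Log2 change with OSM at 24 h and its 95% confidence interval for the 18 measured sterol synthesis and uptake genes and SOAT2, with regulators first, then enzymes in pathway order. Blue genes passed the test and grey ones did not; 16 of the 19 are lower, with HMGCS1 at -1.71 and SOAT2 at -1.61 the lowest.

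Other lipid genes moved less uniformly. Of 20 fatty acid and triglyceride synthesis genes 10 were lower and 2 higher (median -0.30), though 1 was higher without OSM replicate 3 or any 1 of the DMSO replicates. PNPLA3, a lipid droplet hydrolase, had 7.53, 7.10 and 7.28 on the OSM arrays, against 8.63, 8.58 and 8.68 on the DMSO arrays (log2 change -1.32, SE 0.09, adjusted p = 9.1e-10), and DGAT1, which makes triglyceride, had 9.29, 9.20 and 9.15 on the OSM arrays, against 10.29, 10.16 and 10.31 on the DMSO arrays (log2 change -1.04, SE 0.07, adjusted p = 1.3e-09). The glucose-responsive factor MLXIPL also fell (log2 change -0.75, SE 0.11, adjusted p = 5.1e-05), while the phosphatidate phosphatase LPIN2 rose (log2 change 0.66, SE 0.09, adjusted p = 9.4e-06). Among 20 lipoprotein genes 6 were lower and 1 higher (median -0.15): APOC3, an inhibitor of triglyceride clearance (log2 change -1.31, SE 0.13, adjusted p = 2.6e-07), and LCAT, which esterifies cholesterol in HDL (log2 change -0.82, SE 0.10, adjusted p = 3.9e-06), fell with MTTP and APOA1, and the receptor VLDLR rose (log2 change 0.65, SE 0.10, adjusted p = 5.7e-05). In fatty acid oxidation 4 of 9 fell, such as HADH (log2 change -0.59, SE 0.07, adjusted p = 6.7e-06), whereas CPT1A, the gate of mitochondrial import, rose (log2 change 0.88, SE 0.10, adjusted p = 2.2e-06).

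Among detoxification enzymes, the glutathione transferases fell most. GSTA2, which had the lowest change of all called genes, had 3.999, 3.18 and 3.53 on the OSM arrays, against 6.42, 6.14 and 6.36 on the DMSO arrays, and was 6.66-fold lower (log2 change -2.73, SE 0.34, adjusted p = 5.5e-06). Its OSM arrays lay below the array medians, where a level above background is not shown, so this fold too may understate the difference. GSTA1 had 5.94, 6.21 and 5.43 on the OSM arrays, against 7.94, 7.56 and 7.69 on the DMSO arrays (log2 change -1.87, SE 0.16, adjusted p = 1.8e-08). The 2 genes are close in sequence and their probe sets may read each other. ADH6, an alcohol dehydrogenase, fell (log2 change -1.43, SE 0.24, adjusted p = 0.00029), and 7 of 18 measured enzymes of this list were lower and 0 higher (median -0.31). Bile acid genes had 2 falls among 6 measured, KLB, the FGF19 co-receptor (log2 change -1.04, SE 0.13, adjusted p = 5.1e-06), and BAAT, which conjugates bile acids (log2 change -0.88, SE 0.12, adjusted p = 1.2e-05), and 0 rises, or 1 without OSM replicate 2 or DMSO replicate 3.

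Hepatocyte transcription factors had 4 falls and 0 rises among 9 measured. ONECUT1 had 7.23, 6.70 and 6.84 on the OSM arrays, against 8.34, 8.35 and 8.11 on the DMSO arrays (log2 change -1.34, SE 0.14, adjusted p = 2.9e-07), and FOXA1 fell (log2 change -0.45, SE 0.07, adjusted p = 5.4e-05). The calls of GATA4 (-0.31) and ONECUT2 (-0.30) were lost when OSM replicate 2 or 3 or DMSO replicate 2 was left out, and that of GATA4 also without DMSO replicate 1 or 3 (log2 change -0.40 to -0.26 for GATA4 and -0.36 to -0.25 for ONECUT2). The other large falls were LEAP2, an antagonist of the ghrelin receptor, with 5.59, 5.12 and 5.13 on the OSM arrays, against 7.34, 7.23 and 7.27 on the DMSO arrays (log2 change -2.00, SE 0.11, adjusted p = 1.9e-11), the homeobox gene MIXL1 (log2 change -2.43, SE 0.10, adjusted p = 4.3e-13), the Wnt antagonist DKK4 (log2 change -1.98, SE 0.15, adjusted p = 2.1e-09) and the prolactin receptor PRLR (log2 change -1.90, SE 0.15, adjusted p = 4.5e-09). Each had all OSM arrays below all DMSO arrays, but this was a condition for being named among the largest falls. Over all genes 16.6% lay apart in that direction. Of 10 hepatocyte markers 5 were lower and 1, FGB, was higher. APOA1, TTR and TF among these falls, and FGB, are the same genes as in the acute phase lists. AFP (log2 change -0.28) and APOH (log2 change -0.27) were the other falls. The call of APOH was lost without OSM replicate 2 or 3 or any 1 of the DMSO replicates (log2 change -0.30 to -0.24 over the 6 arrays left out in turn). Biliary markers, of which 5 of 8 were measured, had 2 rises, SPP1 (log2 change 0.63, SE 0.07, adjusted p = 2e-06) and SOX9 (log2 change 0.21, lost without OSM replicate 2 or 3 or DMSO replicate 3, with 0.21 to 0.22 over the 6 arrays left out in turn), and their summed signal was 12.50 to 12.52 with OSM and 12.10 to 12.16 with DMSO. That sum leans on the marker with the highest level, at 11.63 with OSM and 11.01 with DMSO. It does not show that the biliary markers rose together. The part of such markers in the hepatocyte genes was not tested.

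Proliferation genes were lower with OSM. In DNA replication 18 of 21 measured genes were lower, 0 were higher and all 21 changes were below zero, as against 48.4% of all genes, with a median of -0.49. GINS2, a subunit of the replicative helicase, had 9.23, 9.09 and 9.23 on the OSM arrays, against 9.91, 9.96 and 10.08 on the DMSO arrays (log2 change -0.80, SE 0.12, adjusted p = 4.3e-05). MCM2 and MCM10 of the same machinery had log2 changes of -0.77 (SE 0.10) and -0.75 (SE 0.07) and fell too, and the licensing factor CDC6 fell as well (log2 change -0.70, SE 0.08, adjusted p = 1.4e-06). In mitosis 17 of 24 were lower and 0 higher (median -0.37), among them the checkpoint gene MAD2L1 (log2 change -0.60, SE 0.10, adjusted p = 0.00017), the spindle motor KIF11 (log2 change -0.57, SE 0.10, adjusted p = 0.00068) and the kinase CDK1 (log2 change -0.55, SE 0.12, adjusted p = 0.0029). That count was 11 in place of 17 without OSM replicate 2, without DMSO replicate 2 or 3, and with the position letter of the array titles as a fixed term.

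Metabolic and stress genes gave single large changes. IGFBP1, a liver-made carrier of insulin-like growth factors, had 11.68, 11.80 and 11.73 on the OSM arrays, against 9.63, 9.39 and 9.58 on the DMSO arrays and was 4.61-fold higher (log2 change 2.21, SE 0.14, adjusted p = 1.2e-10). Pyruvate carboxylase, PC, rose (log2 change 1.08, SE 0.11, adjusted p = 1.8e-07), as did hexokinase HK1 (log2 change 1.27, SE 0.12, adjusted p = 1.4e-07), while glutamate dehydrogenase GLUD1 fell (log2 change -0.68, SE 0.12, adjusted p = 0.00056) and so did BHMT, which remethylates homocysteine (log2 change -0.68, SE 0.09, adjusted p = 1.3e-05). Erythropoietin, EPO, fell (log2 change -0.74, SE 0.11, adjusted p = 8.3e-05). The metal-binding protein MT2A rose (log2 change 0.93, SE 0.11, adjusted p = 3.1e-06), and XBP1, a factor of the unfolded protein response, rose too (log2 change 0.46, SE 0.08, adjusted p = 0.00021). By list, 3 of 19 glucose, amino acid and urea enzymes were higher and 5 lower, 2 of 13 hypoxia and glycolysis genes were higher and 2 lower, and 3 of 8 metallothioneins were higher and 1 lower. Of 16 integrated and ER stress genes 5 were higher and 1 lower, of 5 NRF2 targets 0 were higher and 2 lower, and of 10 cell cycle inhibitors and p53 targets 2 were higher and 1 lower. Of 19 epithelial and mesenchymal genes 4 were higher and 1 lower (TIMP3, whose probe sets disagree), of 8 iron and metal genes 0 were higher and 1 lower, and neither of 2 liver transporters passed. Over all genes 4.60% were higher and 5.65% lower, so counts of 1 or 2 in these short lists are no result about the lists. Leaving out 1 array moved some of the list counts. The lower enzymes were 2 without DMSO replicate 3 and 3 without OSM replicate 3 or DMSO replicate 1 or 2, and the lower metallothioneins were 0 without OSM replicate 2 or 3 or DMSO replicate 1 or 3. The higher stress genes were 3 without OSM replicate 1 or 2 or DMSO replicate 1 or 2, and the lower NRF2 targets were 1 without OSM replicate 3 and 0 without any other of the 6 arrays. The higher p53-linked genes were 1 without OSM replicate 1 or 3 or DMSO replicate 1 or 2, and the lower ones were 0 without OSM replicate 2. CD68 was the 1 macrophage marker of 7 measured that rose (log2 change 0.34, SE 0.08, adjusted p = 0.0054), and 6 did not pass. The summed macrophage signal was 12.59 to 12.64 with OSM and 12.46 to 12.51 with DMSO. That sum leans on the highest marker level, 12.32 with OSM and 12.23 with DMSO, whereas CD68 stood at 9.91 and 9.58. It does not show that the macrophage markers rose together. Of 2 lymphocyte markers 0 passed.

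**Figure D4:**
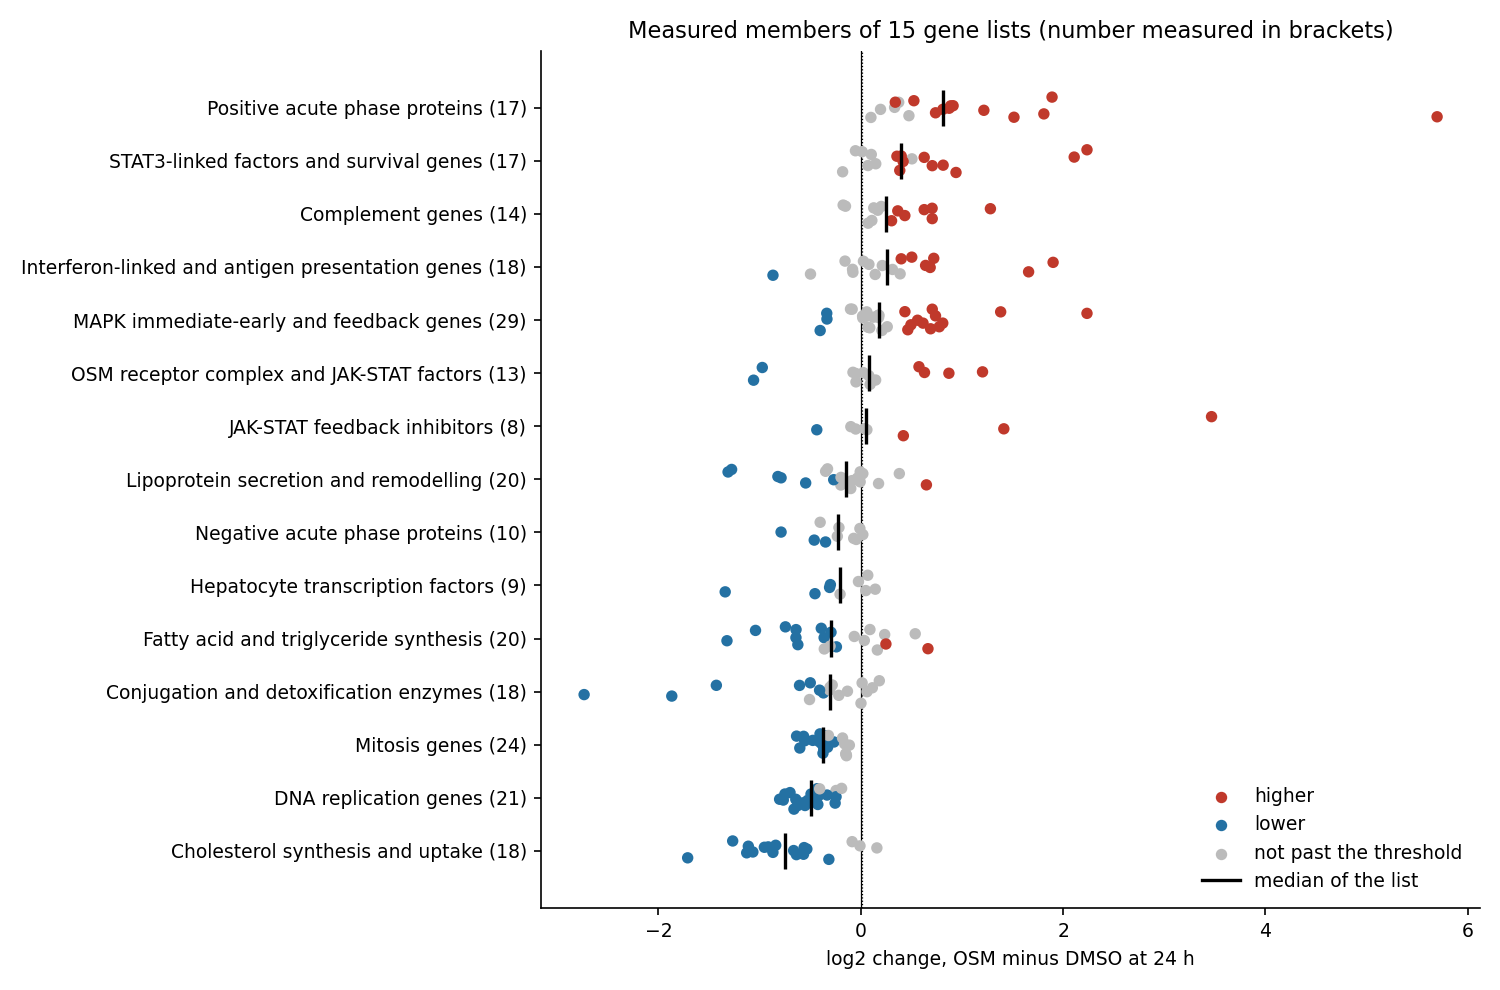
Log2 change with OSM at 24 h for the measured members of 15 gene lists; each point is a gene, red if higher, blue if lower and grey if it did not pass, and the black bar is the median of the list. Acute phase proteins lie to the right (median 0.81), and sterol synthesis (median -0.75) and DNA replication (median -0.49) lie to the left.

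Of 1398 lncRNAs 2.15% were higher and 1.79% lower, beside 5.19% higher and 6.71% lower among 11916 protein-coding genes; the difference between these classes was not tested. LINC00941 rose (log2 change 1.74, SE 0.10, adjusted p = 5.3e-11). Of 1072 microRNA genes 23 were higher (2.15%) and 10 lower (0.933%), both below the shares over all genes (4.60% and 5.65%). The largest rise was MIR21, with 8.60, 8.89 and 8.85 on the OSM arrays, against 6.97, 7.06 and 7.15 on the DMSO arrays, a 3.29-fold difference (log2 change 1.72, SE 0.14, adjusted p = 6.2e-09). Its probe set is annotated to the precursor, which lies within VMP1, so the value is no measure of the mature microRNA alone. The mature sequence from RefSeq is given because it is the product of this transcript, with the seed (bases 2 to 8) in capitals.
hsa-miR-21-5p: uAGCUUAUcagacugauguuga
It lies at chr17:59841273-59841294 on the plus strand of GRCh38.p14. The largest fall was MIR3646 (log2 change -1.47, SE 0.29, adjusted p = 0.0012), which lies in HNF4A and had a low signal, below 4 on all 6 arrays.

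Set against OSM after 1 h, with its own DMSO arrays, the response at 24 h held more called genes, though these counts were not tested against each other. At 1 h 423 genes had changed (2.84%), of which 302 were higher (2.03%) and 121 lower (0.813%). Of the higher genes 157 were higher at both times, which is 22.9% of those at 24 h and 52.0% of those at 1 h, and 27 were lower at both, 3.21% of those at 24 h and 22.3% of those at 1 h. The OSM effect differed between the times for 502 genes (3.37%), being higher at 24 h than at 1 h for 189 (1.27%) and lower for 313 (2.10%). These effects share no arrays. LY96 had a larger effect at 24 h, with log2 changes of 3.91 at 24 h and 0.94 at 1 h (difference 2.97, adjusted p = 8.3e-07), as had LBP with 5.70 at 24 h and 3.73 at 1 h (difference 1.96, adjusted p = 4.3e-07). SOCS3 had a smaller effect at 24 h (3.47) than at 1 h (4.75) (difference -1.28, adjusted p = 0.00018), as had TRIB1 with 0.57 at 24 h and 1.68 at 1 h (difference -1.11, adjusted p = 1.8e-06). For the transcription factor IRF1 the values were 0.40 at 24 h and 2.94 at 1 h (difference -2.55, adjusted p = 4.7e-10), and its call at 24 h was lost without OSM replicate 1 or 3 or DMSO replicate 1 or 2 (log2 change 0.34 to 0.47 over the 6 arrays left out in turn). TXNIP, an inhibitor of thioredoxin, was higher at 24 h (0.80) and lower at 1 h (-1.32). For 12 of the 18 sterol genes the effect was lower at 24 h than at 1 h, and at 1 h 0 of them had passed. HMGCS1 had -1.71 at 24 h and 0.08 at 1 h (difference -1.80, adjusted p = 4.1e-10). For the MAPK genes 17 of 29 had a lower effect at 24 h than at 1 h, with median changes of 0.18 at 24 h and 0.74 at 1 h.

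**Figure D5:**
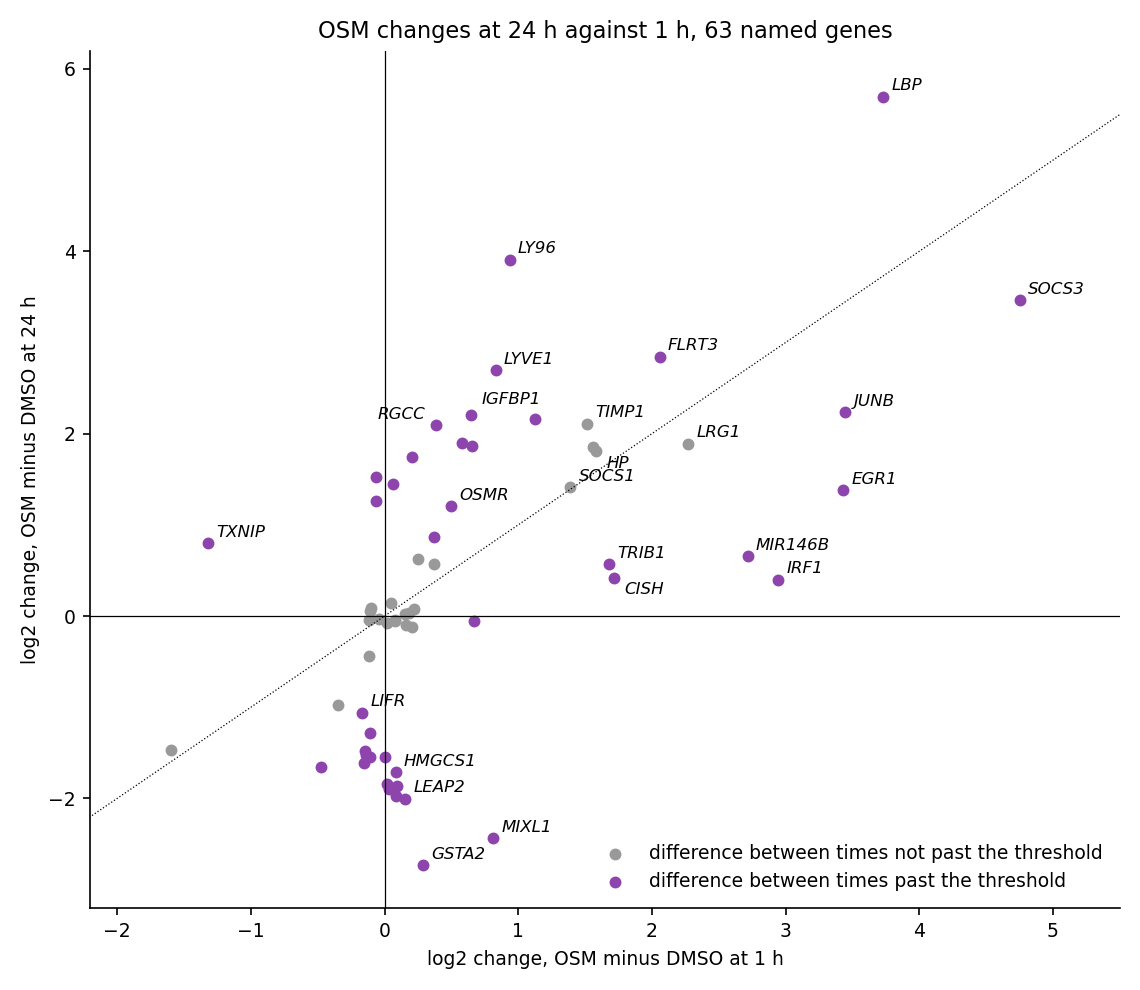
Log2 change with OSM at 24 h (vertical) against that at 1 h (horizontal) for 63 named genes, with the dotted line where both are equal. Purple points are genes whose effects differ between the times by the test and grey points the others; SOCS3, EGR1, IRF1 and TRIB1 lie below the line, and LBP, LY96 and LYVE1 above it.

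BRD8518 at 24 h was compared with OSM directly, since both comparisons with DMSO share the same 3 DMSO arrays. Against DMSO alone, BRD8518 changed 4122 genes (27.7%). OSM and BRD8518 differed for 3458 genes (23.2%), with 1835 higher with OSM (12.3%) and 1623 lower (10.9%). Of the 1526 genes changed by OSM, 904 differed from BRD8518, beside the 23.2% of all genes. Among genes higher with OSM, 273 stood above BRD8518 and 183 below it. Among genes lower with OSM, 175 stood below BRD8518 and 273 above it. So the 904 include many genes that BRD8518 moved further in the same direction. Positive acute phase genes stood higher with OSM for 13 of 17 and lower for 0 (median difference 1.16). LBP had a log2 change of 5.70 with OSM and 0.22 with BRD8518, a difference of 5.48 (adjusted p = 7.9e-18), and SOCS3 had 3.47 with OSM and 0.23 with BRD8518, a difference of 3.23 (adjusted p = 7.1e-14). SOCS1 was 1.41 with OSM and -1.63 with BRD8518 (difference 3.05, adjusted p = 1.1e-13), so that the 2 treatments lay on opposite sides of DMSO. TRIB1 was lower with OSM (0.57) than with BRD8518 (1.21), a difference of -0.64 (adjusted p = 3.4e-06). The MAPK list was lower with OSM for 17 of 29 and higher for 2. The receptor kinase AXL had -0.33 with OSM and 3.42 with BRD8518 (difference -3.76, adjusted p = 1.8e-17); its change with OSM lost its call in 8 of 18 alternatives (log2 change -0.43 to -0.22). DNA replication genes were higher with OSM than with BRD8518 for 18 of 21 and lower for 0, with median changes against DMSO of -0.49 with OSM and -1.05 with BRD8518. Sterol genes were higher with OSM than with BRD8518 for 10 of 18 and lower for 1 (median difference 0.37), with median changes against DMSO of -0.75 with OSM and -1.22 with BRD8518. ACAT2 had -1.27 with OSM and -2.22 with BRD8518 (difference 0.96, adjusted p = 2.8e-09). For HMGCS1 the difference of -0.10 did not pass (SE 0.08, adjusted p = 0.4), and for IGFBP1 neither did that of 0.25 (SE 0.14, adjusted p = 0.22).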

How the data were processed

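Per the submitters' processing notes, which name RMA and oligo, the deposited values are log2 signals; versions and the genome build of the probe sets were not given in the sources used here. HepG2 cells were plated at 10000 per well, and the labels' protocol speaks of 6 wells per treatment. From these values limma 3.58.1 (R 4.3.3) fitted 1 mean per group over all 24 arrays in 8 groups, with Benjamini-Hochberg adjustment over 14884 genes and a threshold of 0.05. A gene with several probe sets (779 genes) was taken from the one with the highest mean over 24 arrays. The 37519 unnamed probe sets were left out, and so were listed genes with no named probe set, among them all 32 cytochrome P450 genes. Arrays give no read depth; their number limits the precision, and the median SE of a change was 0.11. Whether probe sets separate overlapping genes is not known, so the value of a gene that overlaps another may include the partner. Examples are OSMR (which overlaps RICTOR), CISH (MAPKAPK3), ACAT2 (SOD2 and TCP1), GLUD1 (SHLD2) and DTX3L (PARP9). Others are JUNB (HOOK2), CP (HPS3), DGAT1 (HSF1), IDI1 (WDR37), LCAT (SLC12A4), GINS2 (GSE1) and FLRT3 (MACROD2), and more named genes overlap a neighbour. The fit was tested on simulated data.

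The 36 gene lists (729 genes, 409 measured) and the members were chosen with earlier results of these data known. Genes named were the 15 largest rises and 15 largest falls whose arrays did not overlap, all receptor, JAK-STAT and feedback genes, TRIB1 to TRIB3, APOB, MTTP, up to 5 members per direction of each other list, the 10 largest differences each way from 1 h and from BRD8518 among genes called at 24 h, and the 5 largest microRNA genes each way, which gave 188 genes. Lists are described by counts and medians, with no test. Motifs were searched in RefSeq promoters (GRCh38.p14), and plots used Python 3.11 with matplotlib 3.10.9. Alternatives covered array scaling, filtering, moderation, weights, probe set choice, the position letter of the titles, and each array left out.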

Additional observations from a re-analysis of the deposited data

Results flagged for a closer look

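The effect of OSM differed between 24 h and 1 h for 502 genes, each by limma's test of the difference itself, and the values here are log2 effects at 24 h minus those at 1 h. Among the named genes the effect was higher at 24 h for LY96 by 2.97, TXNIP by 2.12, LBP by 1.96, LYVE1 by 1.87, RGCC by 1.71, the mitochondrial sulfide enzyme SQOR by 1.58, IGFBP1 by 1.56, LINC00941 by 1.54, CD109 by 1.39 and TCP11L2 by 1.32. A second CD109 probe set had a log2 change of 0.13 at 24 h and did not pass, against 1.45 in the one used. Of the receptors, OSMR was higher by 0.71 and IL6R by 0.50, while LIFR was lower, with a difference of -0.89.

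Of the 8 measured feedback inhibitors 3 had smaller effects at 24 h than at 1 h, with differences of -1.29 for CISH, -1.28 for SOCS3 and -0.72 for SOCS2. SOCS1 had a log2 change of 1.41 at 24 h and 1.39 at 1 h, and its difference of 0.02 did not pass. TRIB1 had -1.11, EGR1 -2.05, IRF1 -2.55 and the precursor MIR146B -2.06. The call of MIR146B at 24 h was lost in 7 of 17 alternatives (log2 change 0.49 to 0.95 without single arrays). Its signal at 24 h was low and the groups overlapped, with 3.58, 3.79 and 3.79 on the OSM arrays, against 3.65, 2.81 and 2.74 on the DMSO arrays.

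Of the genes that fell at 24 h, MIXL1 had a difference of -3.24, GSTA2 of -3.02, LEAP2 of -2.15, DKK4 of -2.06, GSTA1 of -1.96, PRLR of -1.93 and the methyltransferase TMT1A of -1.86. The difference for MIXL1 was larger in size than its change of -2.43 at 24 h, so its change at 1 h was above zero. At 1 h GSTA2 had 0.29, LEAP2 0.15, DKK4 0.08 and GSTA1 0.09, and these did not pass.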

How the results depend on the processing

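The 3 arrays per group, from 1 cell line, limit every count. With array weights 3068 genes changed (1349 higher, 1719 lower), 1324 differed between the times and 5286 between OSM and BRD8518; without the DMSO 6 h array that stood apart the counts were 2535 (1080 higher, 1455 lower) and 1100 between the times, against 1526 (685 higher, 841 lower), 502 and 3458 as reported. Leaving out each of the 6 arrays gave 1107 to 1222 changed genes (506 to 587 higher, 591 to 698 lower), 108 to 124 changed at least 2-fold, 384 to 446 between the times, 2741 to 3389 against BRD8518 and 0.51 to 0.63 for TRIB1; 1094 to 1171 of the 1526 calls were kept. The fit of the 6 arrays alone gave 1832 and kept 1396, and it cannot give the comparisons with 1 h or BRD8518. No call changed direction in any alternative (0 genes). Calls were higher with OSM in 44.9% of cases as deposited, 42.0% with centred arrays and 49.5% after quantile normalization. The OSM arrays all carry the letter A in their titles and the DMSO arrays 2 A and 1 B; with the letter as a fixed term 1147 genes passed. Signs turned for uncalled genes alone. With array weights OSM had -0.049, SOCS5 -0.00087 and TRIB2 0.028. With the letter as a fixed term OSM had -0.087, SOCS4 -0.029, TRIB2 0.070 and TRIB3 0.0050. Leaving out each array gave -0.13 to 0.044 for JAK2, -0.087 to 0.13 for OSM, -0.029 to 0.079 for SOCS4, -0.019 to 0.14 for SOCS5, -0.028 to 0.18 for STAT5A, -0.12 to 0.070 for TRIB2 and -0.20 to 0.0050 for TRIB3. Over the alternatives, mitosis genes lower ran from 11 to 19 and DNA replication genes lower from 14 to 20. The cause of these shifts was not tested. No paired analysis was possible because the labels carry no replicate numbers that pair samples across groups.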

Other observations

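Among the 37519 probe sets with no gene symbol here, 539 were higher and 534 lower with OSM when every probe set of the array was tested by limma. They were part of 2308 past the threshold among 53617. In the same test 1165 of the 14884 genes passed, 521 higher and 644 lower. The unnamed probe sets thus passed less often than the genes, a difference that was not tested.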
